A study of Oryza sativa with 12 samples.

Results

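Calcium sensing was followed through the 4 groups of the experiment by 6 genes: the calmodulin genes *OsCam1-1* (LOC_Os03g20370), *OsCam1-2* (LOC_Os07g48780), *OsCam1-3* (LOC_Os01g16240), *OsCam2* (LOC_Os05g41210) and *OsCam3* (LOC_Os01g17190), and a calmodulin-related calcium sensor, calmodulin-like protein 4 (*OsCML4*, LOC_Os03g53200). They were taken by locus from a table of 55986 rice genes, and all 6 were among the 31681 genes tested, those with an expression value above 0 in at least 3 of the 12 libraries. By their locus names they lie on chromosomes 3, 7, 1, 5 and 1 for the calmodulins in the order above and on chromosome 3 for *OsCML4*. The seedlings were 8 days old and of the cultivar Nipponbare, either wild type (WT) or the gene-edited line *ntl3-1*, in which a CRISPR-Cas9 mutation in OsNTL3 is predicted to truncate the protein. OsNTL3 is a NAC transcription factor held at the plasma membrane by a transmembrane domain. Each genotype was kept at 29 ºC or moved to 45 ºC for 3 h, and RNA of 3 replicates per group was sequenced. The mutant is represented by this 1 line, and nothing in the labels says whether replicates were separately grown, so the p-values measure the spread between these samples.

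Calmodulin is a small protein with EF-hands, the helix-loop-helix motifs that bind calcium. When calcium in the cell rises, calmodulin binds it, changes shape and attaches to target enzymes, channels and transcription factors, which passes the calcium signal on. Calmodulin-like proteins carry the same kind of calcium-binding motif but have diverged from calmodulin in sequence. A rise of cytosolic calcium is among the early events of plant cells under heat, and in Arabidopsis calmodulin acts in heat shock signalling. In rice, *OsCam1-1*, *OsCam1-2* and *OsCam1-3* are known to encode the same protein, while *OsCam2* and *OsCam3* encode close variants of it. Reads of such similar genes can be shared between them, and how the authors' counting split them is not known, so the split among the *OsCam1* genes is less certain than their sum.

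Expression was given as FPKM, which is the number of fragments of a transcript divided by the transcript length and by the depth of the library. All FPKM of a library summed to 610880 to 698971 at 29 ºC and to 1153023 to 1369236 at 45 ºC, so a comparison between temperatures depends on how libraries are scaled. The number of reads behind a value is unknown. Transcripts of the edited gene OsNTL3 itself were at 18.3 to 21.8 FPKM without heat and 57.5 to 87.5 with heat in WT, and at 10.3 to 14.1 and 28.4 to 34.1 in *ntl3-1*, and a heat shock 22 kDa protein gene (LOC_Os02g52150) was at 3.21 to 5.60 FPKM in the libraries at 29 ºC and 1211 to 2065 at 45 ºC. Libraries of a group were correlated on the log2 scale with r from 0.967 to 0.980. Of the markers of a whole seedling, 5 of 6 shoot genes (for the small subunit of Rubisco and for the antenna protein Lhcb1) and 3 of 3 root genes (RCc3, Lsi1 and Lsi2) were measured, and none was at 0 in any library. The root markers summed to 588 to 752 FPKM at 29 ºC and 89 to 194 at 45 ºC in WT, against 432 to 664 and 91 to 120 in the mutant. The shoot markers summed to 17609 to 22460 and 16952 to 27531 FPKM in WT, against 29135 to 35160 and 26400 to 35607 in the mutant. In whole seedlings, fewer cells of a type and less RNA per cell cannot be told apart.

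The calmodulin genes were among the abundant transcripts in every group, and *OsCML4* joined their range only at 45 ºC. In WT at 29 ºC the order by FPKM was *OsCam2* (177 ± 1.66 FPKM, mean ± SD, n = 3), *OsCam1-2* (153 ± 8.54), *OsCam1-1* (137 ± 4.88), *OsCam3* (101 ± 2.72), *OsCam1-3* (56.7 ± 4.15) and *OsCML4* (8.81 ± 0.97), and no neighbours in this order overlapped in their libraries. The 5 calmodulins ranked between 404 and 1658 from the top among the 31681 genes tested, whereas *OsCML4* ranked 10164. In WT at 45 ºC *OsCam2* stayed above the other calmodulins, *OsCML4* overlapped with *OsCam2*, *OsCam1-1* and *OsCam1-2* and in replicate 3 lay above every *OsCam2* library, and *OsCam1-3* and *OsCam3* overlapped at the bottom. In *ntl3-1* at 29 ºC *OsCam1-1*, *OsCam2* and *OsCam1-2* overlapped at the top, followed at separate levels by *OsCam3*, *OsCam1-3* and *OsCML4*. In *ntl3-1* at 45 ºC *OsCam2* and *OsCam1-1* overlapped at the top, *OsCML4* and *OsCam1-2* overlapped below them, and *OsCam1-3* and *OsCam3* overlapped at the bottom.

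**Figure D1:**
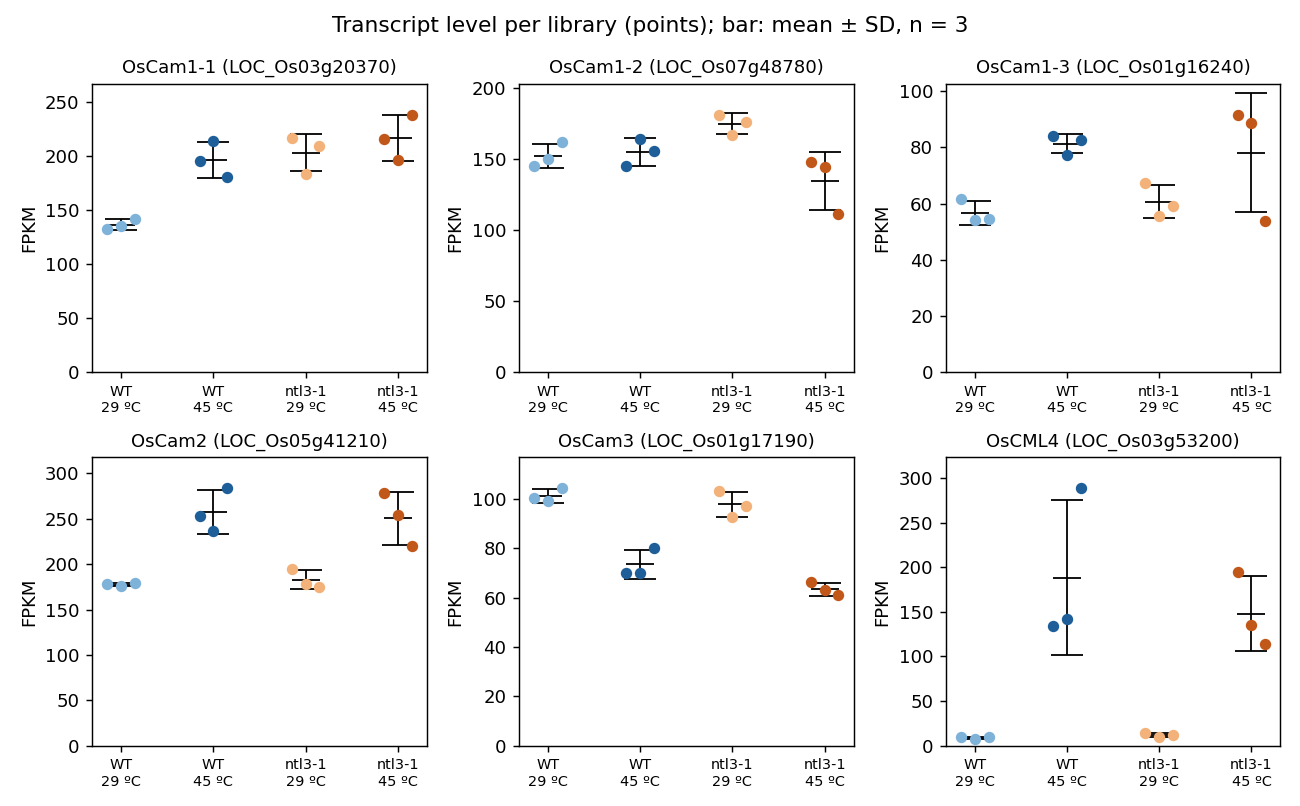
FPKM of each of the 6 genes (vertical axes, each from 0) in the 12 libraries by group; points are libraries, bars the mean ± SD of 3. *OsCML4* goes from 7.69 to 14.3 FPKM at 29 ºC to 114 to 288 at 45 ºC, while *OsCam3* is lower in every library at 45 ºC than at 29 ºC, and for the other 4 genes the direction of the heat difference in WT depends on how libraries are scaled.

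How the calmodulin genes answered heat in WT was asked first. On the FPKM as deposited, *OsCam1-1*, *OsCam1-3* and *OsCam2* were about 1.4 times as abundant at 45 ºC, *OsCam3* was about 0.72 times as abundant and *OsCam1-2* stayed within its spread. *OsCam1-1* stood at 133, 135 and 142 FPKM at 29 ºC and at 195, 214 and 181 at 45 ºC, without overlap, which gave a log2 fold change (log2FC, on log2(FPKM + 0.1)) of 0.52 ± 0.10 (SE; limma, adjusted p = 0.00168). *OsCam2* stood at 178, 176 and 179 FPKM at 29 ºC, the group with the smallest spread of this gene, and at 253, 236 and 283 at 45 ºC (log2FC 0.53 ± 0.11, adjusted p = 0.00173 with limma). *OsCam1-3*, the least abundant of the 5 calmodulins at 29 ºC in both genotypes, stood at 61.4, 54.0 and 54.6 FPKM at 29 ºC and at 84.1, 77.4 and 82.4 at 45 ºC (log2FC 0.52 ± 0.18, adjusted p = 0.0301 with limma). Its groups did not overlap, but the adjusted p was 0.0829, 0.0785, 0.0755 and 0.0669 when WT replicate 2 or 3 at 29 ºC or WT replicate 1 or 3 at 45 ºC was left out. *OsCam3* fell, from 100.5, 99.2 and 104 FPKM to 70.3, 70.0 and 80.4, and no library at 45 ºC reached the level of any at 29 ºC (log2FC -0.47 ± 0.08, adjusted p = 0.000474 with limma). *OsCam1-2* stood at 146, 150.1 and 162 FPKM at 29 ºC and 145, 165 and 156 at 45 ºC, and the groups overlapped (log2FC 0.02, 95% confidence interval -0.22 to 0.27).

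In *ntl3-1* the same comparison gave a rise of *OsCam2* and a fall of *OsCam1-2* and *OsCam3* on the deposited scale. *OsCam2* went from 194, 178 and 175 FPKM to 278, 254 and 220 (log2FC 0.45 ± 0.11, adjusted p = 0.00478 with limma), with the lowest library at 45 ºC above the highest at 29 ºC. *OsCam1-2* went from 182, 167 and 177 FPKM to 148, 144 and 112 (log2FC -0.39 ± 0.11, adjusted p = 0.0142 with limma), and replicate 3 at 45 ºC was the lowest library. *OsCam3* went from 103, 92.9 and 97.2 FPKM to 66.2, 63.1 and 61.1, again without overlap (log2FC -0.62 ± 0.08, adjusted p = 6.65e-05 with limma). *OsCam1-1* was already high at 29 ºC, at 217, 184 and 209 FPKM, and stood at 216, 196 and 239 at 45 ºC, so its groups overlapped (log2FC 0.09, 95% confidence interval -0.14 to 0.32). *OsCam1-3* stood at 67.3, 55.7 and 59.2 FPKM at 29 ºC and at 91.7, 88.8 and 53.7 at 45 ºC, where replicate 3 alone lay below the other libraries of its group and below every *ntl3-1* library at 29 ºC. Its log2FC was 0.33 (95% confidence interval -0.06 to 0.72), and 0.58 without that library (adjusted p = 0.000995 with limma).

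Counted over the 6 genes, heat gave 4 higher and 1 lower in WT when only an adjusted p of 0.05 or less was asked, against 24.3% of all genes tested in each direction. In *ntl3-1* 2 were higher and 2 lower, against 23.7% in each direction. With the fold threshold of the study added (log2FC of at least 1 in size), *OsCML4* was the 1 gene called in each genotype and it was higher, against 13.2% of all genes higher and 11.8% lower in WT and 12.9% and 11.3% in *ntl3-1*. The study had selected *OsCML4* from its expression data for follow-up, so its call is no independent evidence. Of the 5 calmodulins alone, 0 were called at the fold threshold in either genotype. By adjusted p alone, 3 of the 5 were higher and 1 lower in WT, and 1 and 2 in *ntl3-1*. Every library at 45 ºC lay above every library at 29 ºC for 4 of the 6 genes in WT and below for 1, against 26.7% and 28.3% of all genes, and in *ntl3-1* these counts were 2 and 2, against 27.9% and 29.5%. The median log2FC was 0.52 over the 6 genes and -0.04 over all genes in WT, and 0.21 and -0.04 in *ntl3-1*. Over the 5 calmodulins alone it was 0.52 in WT and 0.09 in *ntl3-1*. The 3 root markers fell with heat in both genotypes (median log2FC -1.99 in WT and -2.21 in *ntl3-1*), and their part in these results was not tested.

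The rises of the calmodulins did not hold under every scaling tried, whereas the fall of *OsCam3* in both genotypes and that of *OsCam1-2* in *ntl3-1* did. With every library brought to the same sum of FPKM, a choice made after the sums were seen, all 5 calmodulins were lower at 45 ºC in both genotypes. In WT *OsCam1-1* then had a log2FC of -0.45, *OsCam1-2* of -0.95, *OsCam1-3* of -0.45, *OsCam2* of -0.44 and *OsCam3* of -1.43, and in *ntl3-1* the values ran from -0.46 for *OsCam2* to -1.53 for *OsCam3*. That scaling moved the median of all genes to -0.80 in WT and -0.76 in *ntl3-1*. Relative to this median *OsCam1-1*, *OsCam1-3* and *OsCam2* were at 0.36, 0.35 and 0.36 in WT and *OsCam3* at -0.63. Quantile normalization also turned the rises of *OsCam1-1*, *OsCam1-3* and *OsCam2* in WT to -0.33, -0.05 and -0.39. Together the 5 calmodulins made up 0.0944% to 0.101% of all FPKM in WT at 29 ºC and 0.0572% to 0.0661% at 45 ºC, against 0.0970% to 0.119% and 0.0573% to 0.0601% in *ntl3-1*.

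Ratios between the calmodulin genes within a library are the same for any scaling that multiplies a library by 1 factor, such as a common sum, though not under quantile normalization, and on the deposited values they shifted with heat in both genotypes. Each of the other 4 genes gained on *OsCam3* without overlap between the temperatures in either genotype. The gap was narrow for *OsCam1-2* in *ntl3-1*, whose highest ratio to *OsCam3* at 29 ºC was 1.82 and whose lowest at 45 ºC was 1.83. As an example of a wider gap, the ratio of *OsCam2* to *OsCam3* was 1.71 to 1.77 in WT at 29 ºC and 3.38 to 3.59 at 45 ºC, and 1.80 to 1.92 and 3.598 to 4.20 in *ntl3-1*. As a share of the summed FPKM of the 5 genes, *OsCam3* made up 16.2% ± 0.06 (SD, n = 3) in WT at 29 ºC and 9.61% ± 0.57 at 45 ºC, and 13.6% ± 0.09 and 8.55% ± 0.33 in *ntl3-1*. *OsCam2* made up 28.4% ± 0.49 and 33.7% ± 2.61 in WT, and 25.4% ± 0.96 and 33.6% ± 1.36 in *ntl3-1*. *OsCam1-2* also lost share, going from 24.4% ± 0.85 to 20.3% ± 1.14 in WT while in *ntl3-1* it went from 24.4% ± 0.51 to 18.1% ± 1.57. The ratio of *OsCam1-1* to *OsCam2* overlapped between the temperatures in WT, at 0.745 to 0.794 and 0.639 to 0.907. In *ntl3-1* it was 1.11, 1.03 and 1.20 at 29 ºC and 0.778, 0.771 and 1.09 at 45 ºC, so that it overlapped through replicate 3 at 45 ºC alone and was below every library at 29 ºC in the other two. The ratio of *OsCam1-3* to *OsCam2* overlapped between the temperatures too, at 0.305 to 0.345 and 0.291 to 0.333 in WT. Of the 10 pairs of calmodulin genes, 7 had ratios that did not overlap between the temperatures in WT and 7 in *ntl3-1*, and the overlapping pairs were in both genotypes those among *OsCam1-1*, *OsCam1-3* and *OsCam2*. Ratios over all gene pairs were not computed, so these counts have no background share. The 10 pairs come from 5 genes and are not independent of each other. The shares are descriptions of 3 libraries a group and carry no test.

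**Figure D2:**
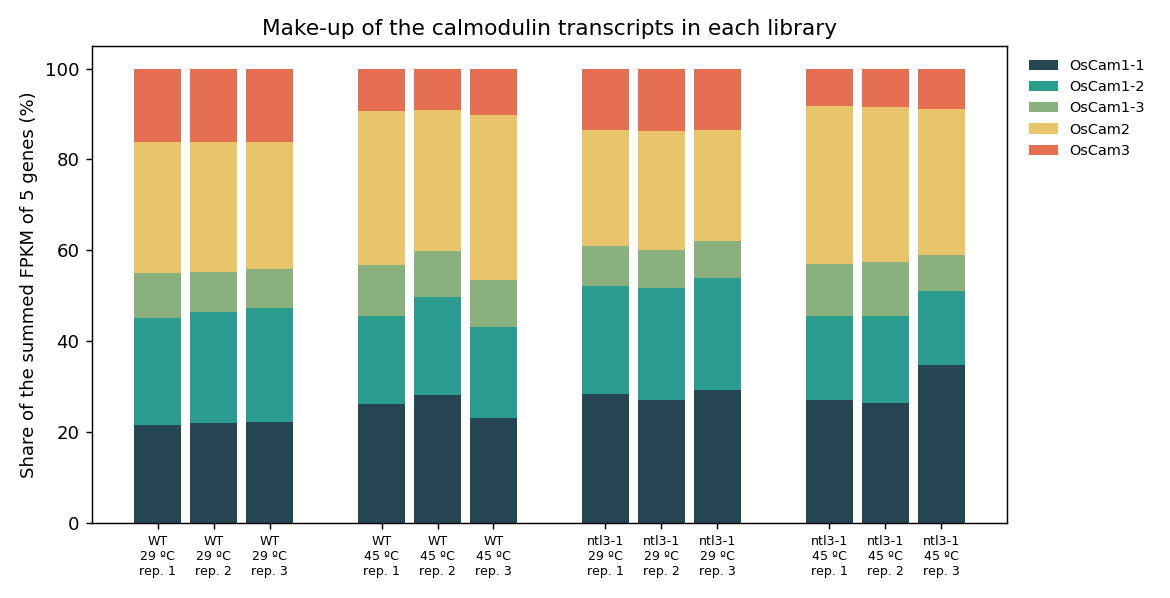
Stacked bars give, for each of the 12 libraries, the share in percent of each calmodulin gene in the summed FPKM of the 5 genes. The *OsCam3* share at 29 ºC is 16.2% to 16.3% in WT and 13.5% to 13.7% in the mutant, against 8.27% to 10.3% at 45 ºC, and replicate 3 of *ntl3-1* at 45 ºC has the highest share of *OsCam1-1*.

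*OsCML4* went with heat from a low level into the range of the calmodulins. The study selected this gene from its expression data for a qRT-PCR follow-up and does not state the rule of selection. In that qRT-PCR, after a longer heat treatment, the selected genes were induced in WT, and their induction was reduced or not significant in the mutant. Because of the selection, the values of *OsCML4* here are a description and not independent evidence. In WT it stood at 9.36, 7.69 and 9.38 FPKM at 29 ºC and at 134, 142 and 288 at 45 ºC. Replicate 3 at 45 ºC lay far above the other libraries of its group, which agreed closely. In *ntl3-1* it stood at 14.3, 10.1 and 12.6 FPKM at 29 ºC and at 195, 135 and 114 at 45 ºC. The log2FC was 4.31 ± 0.29 (SE), 19.9-fold, in WT and 3.55 ± 0.29, 11.7-fold, in *ntl3-1*, and it was 3.35 and 2.64 with libraries brought to a common sum. In WT its rank from the top went from 10164 to 775, and in the mutant from 8106 to 957. Set against the summed FPKM of the 5 calmodulins of the same library, *OsCML4* was 1.25% to 1.52% in WT at 29 ºC and 17.9% to 36.8% at 45 ºC, and 1.496% to 1.87% and 16.7% to 24.3% in *ntl3-1*.

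The genes whose course over the 12 libraries was most like that of *OsCML4*, by the root-mean-square difference of centred log2 values among 13870 genes with a mean of at least 5 FPKM, were LOC_Os01g06660 (0.18), LOC_Os07g44950 (0.21), which the study names OsbZIP16, an ER stress factor held in the membrane, and LOC_Os04g57810 (0.25). LOC_Os01g06660 had a mean of 2.26 FPKM in WT at 29 ºC and 42.8 at 45 ºC, and LOC_Os07g44950 of 9.68 and 203. The nearest to *OsCam1-1* were LOC_Os03g60810, LOC_Os10g43060 and LOC_Os01g65690, each at 0.12. Among the 6 genes themselves *OsCam1-3* and *OsCam2* were the closest pair (0.14), followed by *OsCam1-2* and *OsCam3* (0.22), and *OsCML4* was at 1.75 or more from each calmodulin.

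Between the genotypes without heat, *OsCam1-1* was the 1 gene of the 6 that passed the test. At 29 ºC it was higher in *ntl3-1*, at the 217, 184 and 209 FPKM given above against 133, 135 and 142 in WT, which is 1.48-fold with no overlap (log2FC 0.57 ± 0.10 SE, adjusted p = 0.0148 with limma). This was 1 of 6 genes higher and 0 lower, against 2.35% and 0.398% of all genes. The call is not firm: the adjusted p was 0.0746 and 0.0658 without WT replicate 1 or 2 at 29 ºC, 0.0636 and 0.0754 without *ntl3-1* replicate 1 or 3 at 29 ºC, and 0.126 with libraries brought to a common sum, while the log2FC stayed between 0.49 and 0.64. Within libraries the ratio of *OsCam1-1* to *OsCam1-2* was 0.876 to 0.911 in WT against 1.10 to 1.19 in *ntl3-1*, and its ratio to *OsCam2* was 0.745 to 0.794 and 1.03 to 1.20. Of the 10 pairs of calmodulin genes, 7 had ratios that did not overlap between the genotypes at 29 ºC. Pairs without *OsCam1-1* were among them: *OsCam1-2* to *OsCam2*, and *OsCam1-2* and *OsCam2* each to *OsCam3*, all higher in *ntl3-1*. *OsCam1-1* made up 21.9% ± 0.35 of the summed calmodulin FPKM in WT and 28.2% ± 1.05 in *ntl3-1*. How reads were split among the similar *OsCam1* genes is not known, and their sum was not compared between the genotypes. *OsCML4* was also higher in every *ntl3-1* library than in every WT library at 29 ºC, but its log2FC of 0.47 (95% confidence interval -0.16 to 1.11) did not pass (adjusted p = 0.547 with limma). *OsCam1-2* showed the same separation at a log2FC of 0.20 (95% confidence interval -0.05 to 0.45). So 3 of 6 genes had every *ntl3-1* library above WT, against 13.1% of all genes, and *OsCam1-3*, *OsCam2* and *OsCam3* overlapped with log2FC between -0.05 and 0.10. The 5 shoot markers were all higher in *ntl3-1* at 29 ºC (log2FC 0.38 to 0.90, 0 of 5 past the test) and the 3 root markers all lower (-1.19 to -0.05, 0 of 3 past the test), and their part in the *OsCam1-1* difference was not tested.

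At 45 ºC none of the 6 genes passed the test between the genotypes (0 higher and 0 lower with limma, against 1.18% and 0.432% of all genes). *OsCam3* was lower in every *ntl3-1* library (66.2, 63.1 and 61.1 FPKM) than in every WT library (70.3, 70.0 and 80.4), at a log2FC of -0.21 with an unadjusted p of 0.0188 and an adjusted p of 0.247 with limma. It was the 1 gene of 6 without overlap, against 6.71% of all genes below and 7.24% above. *OsCam1-1* differed by 0.14 (95% confidence interval -0.09 to 0.37). Its ratio to *OsCam1-2* did not overlap between the genotypes, at 1.16 to 1.34 in WT and 1.36 to 2.14 in *ntl3-1*. The ratios of *OsCam1-1* and of *OsCam2* to *OsCam3* were apart too. These were 3 of the 10 pairs of calmodulin genes, and the other 7 overlapped. *OsCML4* had a log2FC of -0.29 (95% confidence interval -0.93 to 0.34), which became 0.06 without WT replicate 3 at 45 ºC. The shoot markers differed by 0.11 to 0.73 (5 of 5 higher in *ntl3-1*, 0 past the test) and the root markers by -0.37 to -0.29.

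Whether heat acted differently in the mutant was tested by the interaction, the log2FC with heat in *ntl3-1* minus that in WT. None of the 6 genes passed (0 higher and 0 lower with limma, against 0.0915% and 0.148% of all genes), and 2 of 6 had an unadjusted p of at most 0.05 against 7.62% of all genes. All 6 estimates were negative, with a median of -0.30 against -0.01 over all genes. They come from the same 12 libraries, so their shared sign is a description and not 6 independent results. *OsCam1-1* had the lowest p of the 6: its response was 0.43 smaller in *ntl3-1* on the log2 scale (95% confidence interval -0.75 to -0.11, adjusted p = 0.458 with limma). Single libraries at 45 ºC stood 0.41 to 0.65 above the mean at 29 ºC in WT and between -0.05 and 0.23 in *ntl3-1*. For *OsCam1-2* the estimate was -0.41 (95% confidence interval -0.76 to -0.07, adjusted p = 0.551 with limma), with single libraries at -0.07 to 0.11 in WT and -0.65 to -0.24 in *ntl3-1*. *OsCML4* had the largest estimate, -0.76, and also the widest interval (-1.66 to 0.13, adjusted p = 0.745 with limma), and the responses of single libraries, 3.92 to 5.02 in WT and 3.21 to 3.98 in *ntl3-1*, overlapped. Without WT replicate 3 at 45 ºC its estimate was -0.41. The estimates for *OsCam2* and *OsCam3* were -0.08 and -0.16, and that for *OsCam1-3*, -0.19, turned to 0.05 without *ntl3-1* replicate 3 at 45 ºC, as did that for *OsCam2*, to 0.01. The interaction, the heat response of WT and the genotype difference at 29 ºC all use the WT libraries at 29 ºC, so they are not independent of each other.

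**Figure D3:**
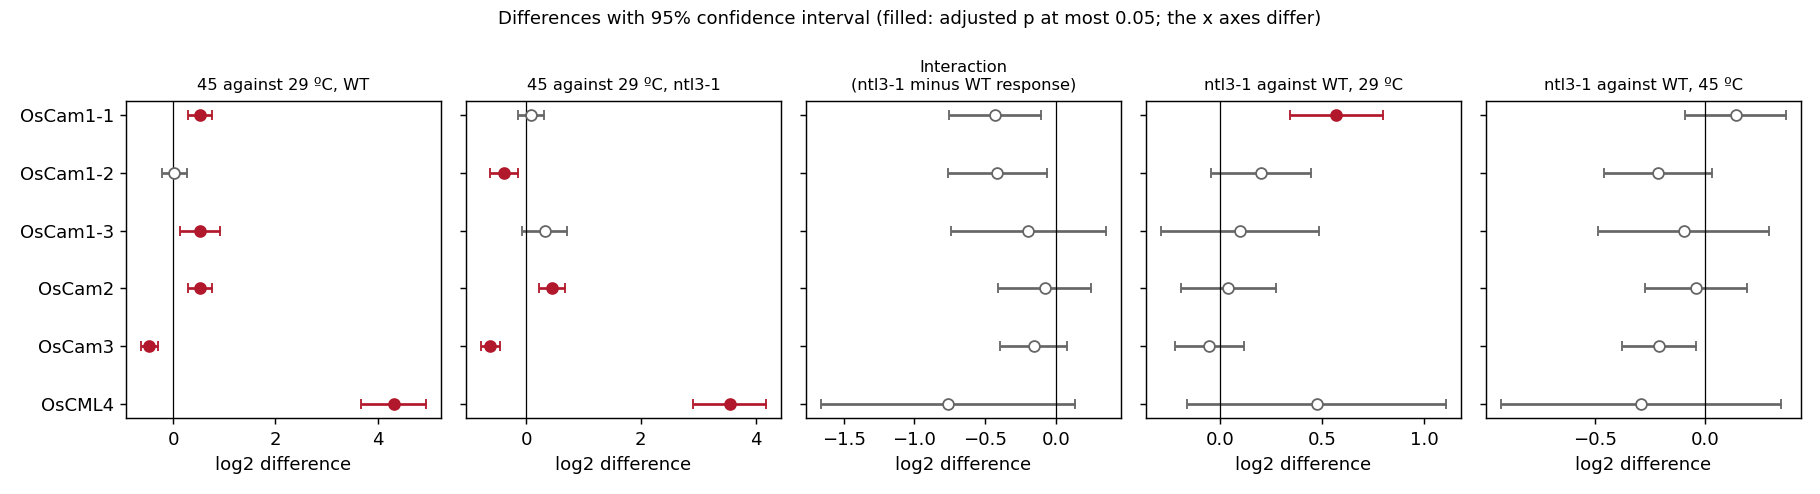
Each panel gives, for 1 comparison, the log2 difference of the 6 genes (points) with its 95% confidence interval on its own horizontal scale; filled red points have an adjusted p of at most 0.05. *OsCML4* is at 4.31 and 3.55 in the heat panels, *OsCam1-1* is the 1 filled point between genotypes (0.57 at 29 ºC), no interaction point is filled, and the heat rises of the calmodulins turn negative with libraries brought to a common sum.

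The other calmodulin-like genes of rice were read beside the 6 genes as a list of 31 loci, of which 30 were in the table used here and 29 were tested. Their names follow the numbering of the family, and RefSeq (assembly ASM3414082v1) held a gene of the same name on the same chromosome for 25 of the 31. With heat, 10 of 29 were up-regulated and 0 down-regulated in WT, against the 13.2% and 11.8% of all genes given above, and 8 were up-regulated and 2 down-regulated in *ntl3-1*, against 12.9% and 11.3%. Each of 2 genes passed the filter on low values in 3 libraries only. LOC_Os01g72540 was above 0 in *ntl3-1* at 45 ºC alone, and LOC_Os11g37550 in 2 libraries of WT and 1 of *ntl3-1* at 29 ºC. Without these 2 genes the counts were 10 and 0 of 27 in WT and 7 and 2 in *ntl3-1*. Of the up-regulated genes, 8 and 6 had a mean of at least 1 FPKM. With libraries brought to a common sum the counts over all 29 genes were 6 up and 6 down in WT and 5 up and 6 down in *ntl3-1*, against 6.52% up and 39.8% down among all genes in WT and 6.25% and 37.8% in *ntl3-1*. The 5 include LOC_Os01g72540, which was tested through 1 group alone and supports no call. The median log2FC of the list was 0.40 in WT and 0.45 in *ntl3-1* over the 29 genes, and 0.54 and 0.45 over the 27.

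Among these genes the rises of OsCML16, OsCML31 and OsCML15 were the largest in both genotypes, and the first was larger than that of *OsCML4* in both. OsCML16 (LOC_Os01g04330) stood at 5.72, 3.86 and 11.0 FPKM in WT at 29 ºC and at 631, 537 and 609 at 45 ºC (log2FC 6.54 ± 0.41 SE), and at 25.0, 43.7 and 77.1 and at 681, 926 and 986 in *ntl3-1* (4.28 ± 0.41). After heat its transcripts were thus above those of every calmodulin gene in all 6 libraries. OsCML31 (LOC_Os01g72530) stood at 2.10, 2.78 and 5.47 FPKM and at 108, 122 and 191 in WT (log2FC 5.37 ± 0.36), and at 24.4, 18.6 and 38.6 and at 278, 197 and 239 in *ntl3-1* (3.18 ± 0.36). OsCML15 (LOC_Os05g31620) stood at 5.77, 7.10 and 19.8 FPKM and at 251, 166 and 299 in WT (log2FC 4.62 ± 0.43), and at 21.1, 35.9 and 48.7 and at 300.5, 301.5 and 295 in *ntl3-1* (3.16 ± 0.43). For all 3 the smaller log2FC in *ntl3-1* went with higher values at 29 ºC, and none of the 3 interactions passed the test (adjusted p = 0.257, 0.192 and 0.614 with limma). The 2 genes down-regulated in *ntl3-1* were OsCML14 (LOC_Os05g50180), from 17.6, 17.2 and 27.9 FPKM to 4.50, 8.43 and 6.45 (log2FC -1.69), and OsCML24 (LOC_Os07g48340), from 19.3, 23.2 and 24.9 to 10.7, 8.86 and 13.2 (log2FC -1.05, and -0.97 and -0.90 without *ntl3-1* replicate 3 at 29 ºC or replicate 2 at 45 ºC). OsCML9 (LOC_Os05g41200), which lies next to *OsCam2* in the RefSeq gene order and was singled out for this after its values were seen, stood at 6.37 to 10.4 FPKM in WT at 29 ºC and 3.32 to 7.63 at 45 ºC, and its heat difference did not pass the test (log2FC -0.76, adjusted p = 0.0565 with limma).

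Between the genotypes at 29 ºC, 9 of these 29 genes were higher in *ntl3-1* and 0 lower, against 2.35% and 0.398% of all genes, and every *ntl3-1* library was above every WT library for 15 of them, against 13.1%. The median difference of the list was 0.41 on the log2 scale and 0.00 over all genes. Besides OsCML16 (log2FC 2.79, adjusted p = 0.00525 with limma), OsCML31 (2.99, adjusted p = 0.00151) and OsCML14 (1.93, adjusted p = 0.0304), the genes were OsCML5, OsCML18, OsCML20, OsCML21, OsCML22 and OsCML30. OsCML21 (LOC_Os05g24780) stood at 1.94, 1.74 and 2.26 FPKM in WT and 18.3, 9.39 and 15.3 in *ntl3-1* (log2FC 2.75 ± 0.31, adjusted p = 0.00102 with limma). OsCML5 (LOC_Os12g41110) stood at 1.65, 1.96 and 1.98 FPKM in WT and 4.12, 4.16 and 5.30 in *ntl3-1* (log2FC 1.23 ± 0.14, adjusted p = 0.00111 with limma). OsCML20 (LOC_Os02g50060) and OsCML22 (LOC_Os04g41540) were higher at both temperatures, by 1.21 and 1.07 and by 0.72 and 0.71 on the log2 scale. The OsCML20 difference at 45 ºC is not firm: it passed in 4 of the 12 fits that left out a library (adjusted p = 0.0259 to 0.0913 with limma), and under quantile normalization the adjusted p was 0.0549. The OsCML22 difference at 45 ºC did not pass with libraries brought to a common sum (adjusted p = 0.0575 with limma). OsCML18 (LOC_Os05g13580) and OsCML30 (LOC_Os06g07560) differed by 0.73 and 0.85 at 29 ºC. These 2 calls and those of OsCML14 and OsCML20 at 29 ºC are not firm. Of the 12 fits that left out a library, OsCML18 passed in 5 (adjusted p = 0.0204 to 0.147 with limma). OsCML30 passed in 9 (0.0106 to 0.101), OsCML14 in 7 (0.0148 to 0.131) and OsCML20 in 10 (0.00907 to 0.0582). The 29 ºC call of OsCML16 held in all 12 of these fits and in 22 of the 23 planned settings (highest adjusted p = 0.0825 with limma). Without WT replicate 2 at 29 ºC, or without *ntl3-1* replicate 3 at 29 ºC, 5 genes of the list were called higher at this temperature, against 426 of 31350 and 396 of 31330 genes tested. The shoot and root markers that moved with genotype at 29 ºC are given above, and their part in these differences was not tested.

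At 45 ºC OsCML20 and OsCML22 were the 2 of the 27 genes higher in *ntl3-1*, and 0 were lower, against 1.18% and 0.432% of all genes. Without *ntl3-1* replicate 1 at 45 ºC, 1 remained higher, against 278 of 31404 genes tested. LOC_Os01g72540 was listed at 0 in all 9 libraries of the other groups and at 1.08, 0.372 and 0.335 FPKM in *ntl3-1* at 45 ºC. It entered the tested genes through that group alone, so its difference is a description and is left out of the counts here. In the interaction 0 of the 27 genes were higher and 0 lower by adjusted p with limma, against 0.0915% and 0.148% of all genes. An unadjusted p of 0.05 or less was reached by 7 on the lower side and 1 on the higher, against 7.62% of all genes in both directions together. The median was -0.29 on the log2 scale and -0.01 over all genes.

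**Figure D4:**
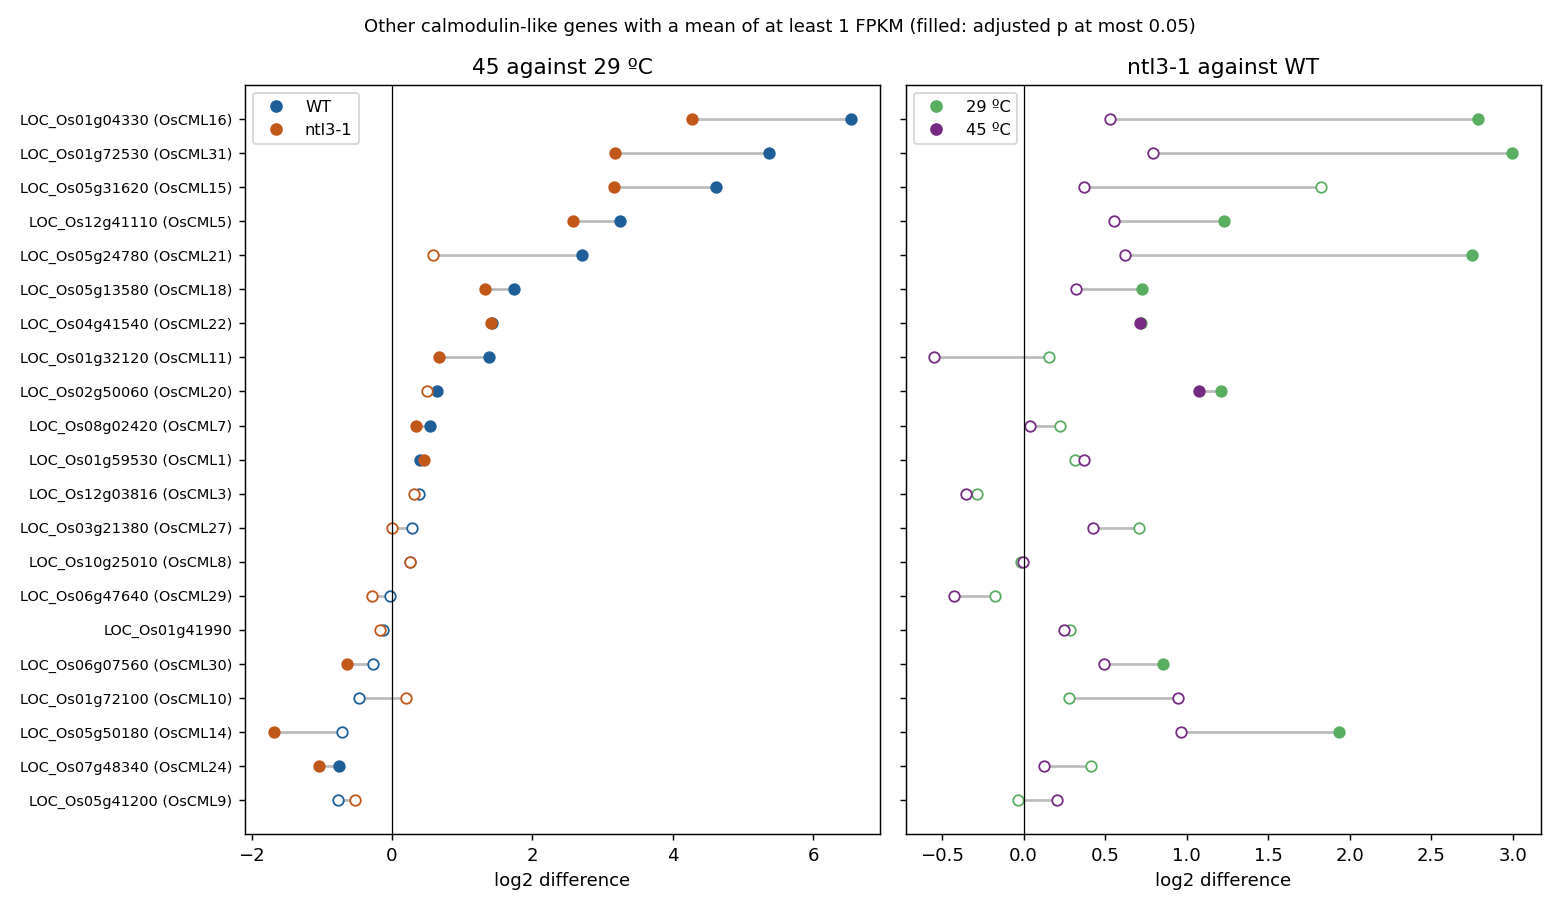
For the 21 other calmodulin-like genes with a mean of at least 1 FPKM, the left panel gives the log2 difference of 45 ºC against 29 ºC in WT (blue) and *ntl3-1* (orange), the right panel that of *ntl3-1* against WT at 29 ºC (green) and 45 ºC (purple); filled points have an adjusted p of at most 0.05. OsCML16, OsCML31 and OsCML15 lead the left panel at 6.54, 5.37 and 4.62 in WT, the 9 filled green points all lie above 0, and smaller heat differences such as that of OsCML20 turn negative with libraries brought to a common sum.

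CAMTA proteins are transcription factors that bind calmodulin, and their 7 listed genes were all tested. None was up- or down-regulated with heat at the fold threshold, against 13.2% and 11.8% of all genes in WT and 12.9% and 11.3% in *ntl3-1*. None differed between genotypes (0 of 7 with limma), against 2.35% of all genes higher and 0.398% lower at 29 ºC and 1.18% and 0.432% at 45 ºC. The interaction also gave 0 of 7, against 0.0915% higher and 0.148% lower. When only an adjusted p of 0.05 or less was asked, 1 was higher and 1 lower with heat in each genotype, against 24.3% of all genes in each direction in WT and 23.7% in *ntl3-1*, and both are named because of their values. LOC_Os10g22950 stood at 21.1, 24.3 and 20.5 FPKM in WT at 29 ºC and at 32.6, 30.6 and 45.4 at 45 ºC (log2FC 0.70 in WT and 0.62 in *ntl3-1*, and -0.27 and -0.29 with libraries brought to a common sum). LOC_Os01g69910 stood at 11.0, 13.0 and 10.6 FPKM and at 7.20, 8.01 and 7.99 (log2FC -0.57 in WT and -0.49 in *ntl3-1*).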

How the data were processed

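RNA of 12 libraries, 3 in each of 4 groups, was analysed from 1 table. The authors filtered reads with SeqPrep and Sickle, used TopHat with the MSU rice genome and annotation for alignment, and computed FPKM with RSEM. Whether the deposited FPKM are those values is not stated. The submitters' processing notes name Bowtie 0.12.2 and a mouse build, and the table is headed like Cuffnorm output. Whether the values were scaled further between libraries is not given in the sources used here. Groups come from the sample labels, and the temperatures and the allele from the paper.

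Values were taken as log2(FPKM + 0.1), and limma 3.58.1 in R 4.3.3 fitted a mean for each group over the 12 libraries, with a mean-variance trend. P-values are two-sided and adjusted by Benjamini-Hochberg over the 31681 genes that were above 0 in 3 or more libraries. Called with heat means an adjusted p of at most 0.05 and a log2FC of at least 1 in size, and otherwise an adjusted p of at most 0.05. The procedure was tested on simulated data. Read counts were not used, so edgeR could not be run and the depth is unknown.

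The members and lists were chosen with earlier results of these data known. Of the other lists, genes were named where they passed in the interaction or between genotypes, or were among the 3 largest called heat changes in each direction with a mean of at least 1 FPKM. Other settings tried were constants of 1 and 0.01 FPKM, 2 filters, median-of-ratios and quantile scaling, separate models, the replicate number as a block, no variance trend, no fold threshold, a stricter adjusted p (0.01), each library left out, and a common sum of FPKM, the last chosen after the data were seen. A planned comparison of proteins and promoters was not made, as no sequences were used here. The identifiers of the table matched 0 entries of RefSeq.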

Additional observations from a re-analysis of the deposited data

Results flagged for a closer look

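LOC_Os01g72540, a calmodulin-like locus, had a difference of 2.64 on the log2(FPKM + 0.1) scale in the heat response between the genotypes. It was listed at 0 in all libraries but those of *ntl3-1* at 45 ºC, which held 1.08, 0.372 and 0.335 FPKM, and it was among the genes tested through these 3 libraries alone. Its difference therefore supports no call, and its size depends on the constant added (0.64 with a constant of 1 FPKM).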

How the results depend on the processing

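The 12 libraries carry no read counts here, so depth limits the low values by an unknown amount. Of 24 settings, 12 left out a library, 11 were other planned choices and 1 was added. The heat rise of *OsCML4* and the fall of *OsCam3* in both genotypes, and the fall of *OsCam1-2* in *ntl3-1*, kept their direction in all of them. Replicate numbers did not pair the libraries (r of deviations -0.11 to 0.09 over 18 pairs). With the replicate number as a block, OsCML20 at 45 ºC was lost (adjusted p = 0.0572 with limma), and the interaction count of the other calmodulin-like genes was 0, against 18 of 31681 genes called higher. Counts in this part are over all 29 of these genes tested, so they include LOC_Os01g72540, which passed the filter through 1 group alone and is the 1 gene in their interaction count. The cause of the changes below was not tested.

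Brought to a common sum of FPKM, the heat log2FC in WT turned to -0.45 for *OsCam1-1*, -0.95 for *OsCam1-2*, -0.45 for *OsCam1-3* and -0.44 for *OsCam2*, and in *ntl3-1* to -0.82, -0.58 and -0.46 for *OsCam1-1*, *OsCam1-3* and *OsCam2*. The difference of *OsCam2* between genotypes at 29 ºC turned to -0.043. The counts became 1 of the 6 genes lower in WT, 2 lower in *ntl3-1* and 0 higher in *ntl3-1* at 29 ºC, 6 up and 6 down among the other calmodulin-like genes in WT, 5 and 6 in *ntl3-1*, and 5 of 7 CAMTA genes lower in each genotype, against 6.52% of all genes higher and 39.8% lower in WT and 6.25% and 37.8% in *ntl3-1*. Of all genes, 2.35% were then higher in *ntl3-1* at 29 ºC. Under quantile normalization the same genes stood at -0.33, -0.80, -0.045 and -0.39 in WT and -0.76, -0.20 and -0.39 in *ntl3-1*, *OsCam2* at 29 ºC at -0.050, with 1 of the 6 genes lower in WT, 2 lower in *ntl3-1* and 0 interaction calls among the other calmodulin-like genes. Of all 31681 genes, 4217 were then lower in WT and 3949 in *ntl3-1*, and 33 were higher and 54 lower in the interaction.

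Without a fold threshold, 4 of the 6 genes were higher and 1 lower with heat in WT and 2 and 2 in *ntl3-1*, 1 other calmodulin-like gene was lower in WT, and 1 CAMTA gene was higher and 1 lower in each genotype. The shares of all genes were 24.3% in each direction in WT and 23.7% in *ntl3-1*. The interaction count of the other calmodulin-like genes was 0 with a constant of 1 FPKM, either filter, no variance trend and an adjusted p of at most 0.01. Under these settings 8 to 31 of all genes tested were called higher in the interaction. A constant of 1 FPKM left 1 of the other calmodulin-like genes down-regulated in *ntl3-1*, against 1715 of 31681 genes. With the stricter adjusted p of 0.01, 0 of the 6 genes and 5 of the others were higher in *ntl3-1* at 29 ºC, against 351 of 31681 genes. Separate models gave 5 of the others higher at 29 ºC and 0 at 45 ºC, against 481 and 126 of 31681 genes.

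With 1 library left out, the heat log2FC of *OsCam1-2* in WT ran from -0.020 to 0.071, the interaction from -0.33 to 0.054 for *OsCam1-3* and -0.16 to 0.011 for *OsCam2*, the difference of *OsCam2* at 29 ºC from -0.0072 to 0.069, and those at 45 ºC from -0.23 to 0.15 for *OsCam1-3*, -0.12 to 0.050 for *OsCam2* and -0.51 to 0.063 for *OsCML4*. The count of the 6 genes higher in *ntl3-1* at 29 ºC ran from 0 to 1. Counts of the other calmodulin-like genes ran from 5 to 10 higher at 29 ºC, 1 to 3 higher at 45 ºC, 0 to 2 down-regulated in WT, 1 to 2 in *ntl3-1*, and 0 to 0 higher and 0 to 1 lower in the interaction. Among all genes tested these counts ran from 396 to 885, 278 to 405, 3403 to 3956, 3302 to 3675, 9 to 22 and 12 to 39.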
